A study of Homo sapiens with 8 samples.

Results

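CYP1B1, a cytochrome P450 enzyme gene, and 5 genes of the aryl hydrocarbon receptor pathway that controls it were followed through 8 RNA-seq libraries of KCL-22. This human cell line comes from chronic myeloid leukemia in blast crisis and carries the BCR-ABL fusion kinase. The 6 genes were CYP1B1, CYP1A1, AHR, AHRR, ARNT and TIPARP. They were found by symbol among the 31402 entries of the deposited expression table, each with 1 row. The list was drawn up with values of these libraries already known, so the levels of the 6 genes and the differences in them are given as a description, without p-values.

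All libraries came from KCL-22 cells carrying ClonTracer DNA barcodes, which tag single cells and their descendants. Of the 4 sorted and expanded clones, Clones 1, 2 and 4 came from cells resistant to 2.5 µM GNF-2 and had met no catalytic inhibitor. Clones 1 and 2 were resistant to GNF-2, and Clone 4 to GNF-2, imatinib and nilotinib. Clone 3 came from cells resistant to 2.5 µM imatinib, had met no allosteric inhibitor and was resistant to imatinib and nilotinib. The resistant populations had been kept for 27 days in imatinib (2.5 µM) or nilotinib (0.3 µM) or for 21 days in GNF-2 (2.5 µM), and the vehicle population for 7 days in 0.1% DMSO. Imatinib and nilotinib are related compounds that block the catalytic site of the BCR-ABL kinase, and GNF-2 is an allosteric inhibitor of the same kinase. By resistance the libraries formed a catalytic-resistant group (imatinib population, nilotinib population and Clone 3, n = 3), a GNF-2-resistant group (GNF-2 population, Clone 1 and Clone 2, n = 3), Clone 4 alone and vehicle alone. Each clone stands for the progeny of 1 sorted cell, and each condition has 1 library. The labels do not say whether the sequenced populations are the very ones from which the clones were sorted.

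The aryl hydrocarbon receptor, encoded by AHR, waits in the cytosol in a complex with HSP90 chaperones until it binds a small molecule such as a dioxin, a polycyclic aromatic hydrocarbon or a tryptophan metabolite. It then enters the nucleus, pairs with ARNT and binds DNA at xenobiotic response elements, whose core reads GCGTG. CYP1A1 and CYP1B1 are its best known target genes, and AHRR and TIPARP are targets that feed back on it: AHRR competes for ARNT and TIPARP ADP-ribosylates the receptor.

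The core of the xenobiotic response element was looked up in the sequence before the start sites of the 6 genes, since the levels of several of them moved together. The RefSeq promoter table (build GRCh38.p14) held 8 start sites for 5 of the genes, and none for CYP1B1. The windows that carry the core upstream of the start are shown 5′ to 3′ on the strand of the gene, 250 bases long and ending at the base before the start, with each core in capitals (GCGTG, or CACGC where it lies on the opposite strand). They cover chr15:74725529-74725778 (minus strand) for CYP1A1, chr5:321464-321713 and chr5:322360-322609 (plus strand) for AHRR, and chr3:156674340-156674589 (plus strand) for TIPARP.
CYP1A1: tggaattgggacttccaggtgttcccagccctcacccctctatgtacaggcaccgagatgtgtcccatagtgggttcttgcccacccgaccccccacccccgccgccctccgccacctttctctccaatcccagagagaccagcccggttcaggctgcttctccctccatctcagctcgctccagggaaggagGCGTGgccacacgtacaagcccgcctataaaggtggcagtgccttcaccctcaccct
AHRR start 1: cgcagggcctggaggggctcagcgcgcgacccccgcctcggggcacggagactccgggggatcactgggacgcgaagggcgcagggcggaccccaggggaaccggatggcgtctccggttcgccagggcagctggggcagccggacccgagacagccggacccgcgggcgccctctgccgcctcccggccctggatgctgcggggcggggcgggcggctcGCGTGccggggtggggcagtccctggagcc
AHRR start 2: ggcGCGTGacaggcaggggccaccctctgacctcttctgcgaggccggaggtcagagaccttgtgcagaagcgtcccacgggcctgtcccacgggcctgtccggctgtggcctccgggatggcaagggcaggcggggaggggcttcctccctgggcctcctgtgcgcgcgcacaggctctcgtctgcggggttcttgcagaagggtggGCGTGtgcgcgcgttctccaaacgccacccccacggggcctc
TIPARP start 1: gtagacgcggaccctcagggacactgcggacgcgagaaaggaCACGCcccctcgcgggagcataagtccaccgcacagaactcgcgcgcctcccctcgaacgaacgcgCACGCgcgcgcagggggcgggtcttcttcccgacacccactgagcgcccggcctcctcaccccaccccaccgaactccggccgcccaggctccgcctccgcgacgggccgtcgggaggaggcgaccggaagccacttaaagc

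In CYP1A1 the core begins 57 bases before the start. AHRR has it 30 bases before its first start and 247 and 42 bases before its second, and TIPARP has it 208 and 142 bases before its first start, both times on the opposite strand. AHR has 1 match, 37 bases after its start and so outside the printed part, and ARNT has none. Over the whole 300-base window, which runs 50 bases past the start, 5 of the 8 promoters (62.5%), from 4 of the 5 genes, held GCGTG on either strand, against 36.5% of all 35116 promoters in the table. The longer form TNGCGTG, which contains the core, was found only before the first AHRR start, 32 bases upstream, and is held by 5.51% of all promoters. A match is a run of letters and says nothing of whether the receptor binds there. The AHRR windows are placed in GRCh38.p14, while the AHRR row of the expression table begins at chr5:304291 in GRCh37. They need not lie at the start of that row.

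Expression was given as FPKM, fragments scaled by transcript length and by the size of the library, so levels can be set beside each other within and between genes. FPKM summed to between 497775 and 583520 per library. No fragment counts were used; the smallest steps of FPKM in 633 intronless genes put the depth at about 20000000 fragments (GNF-2 population) to 39400000 (Clone 1), a rough estimate. BCR and ABL1, the genes joined in the fusion, had at least 58.8 and 65.3 FPKM in every library. KIT and MPO, myeloid progenitor markers, stayed at or below 0.00524 and 0.403 FPKM. Of 10 markers listed for KCL-22, 8 reached 1 FPKM in some library, and their sum ran from 325 (Clone 3) to 534 (vehicle). The labels do not state separate cultures for the libraries within a group, so p-values given below for other genes of the pathway measure only the spread between these samples.

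CYP1B1 lies on chromosome 2 (chr2:38294745-38303323, GRCh37, as are all positions of the table). Its enzyme oxidises polycyclic aromatic hydrocarbons and estrogens, mostly outside the liver. CYP1B1 had 14.2 FPKM in Clone 1, 0.0174 in Clone 2, 329.6 in Clone 3 and 19.9 in Clone 4, against 42.0 in the imatinib, 56.8 in the nilotinib and 21.9 in the GNF-2 population and 45.3 in vehicle. The 4 clones thus held both the highest and the lowest level, and the populations stayed within a narrower band. Clone 3 exceeded the next library, the nilotinib population, 5.80-fold. In bulk RNA, fewer expressing cells and less RNA per cell cannot be told apart.

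On the scale of log2(FPKM + 1), the only gaps between neighbours in the CYP1B1 order larger than the within-group SD (2.06, 4 residual degrees of freedom) were those below Clone 3 (2.52) and above Clone 2 (3.90). The 6 libraries between these, 3 of them resistant populations, followed each other with gaps of at most 0.91. Clones 3 and 2 belong to the resistance groups from which this SD was taken, and they enlarge it. It is therefore no independent measure of how far the other libraries differ. Of the 11843 genes with a mean of at least 1 FPKM, which were the genes tested, 38 (0.321%) lay at least 2-fold higher in Clone 3 than in each other library with at least 5 FPKM there, and CYP1B1 was among them. In Clone 2, 80 genes (0.676%) lay at least 2-fold below each other library where all the others had at least 5 FPKM, and CYP1B1 was again among them.

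**Figure D1:**
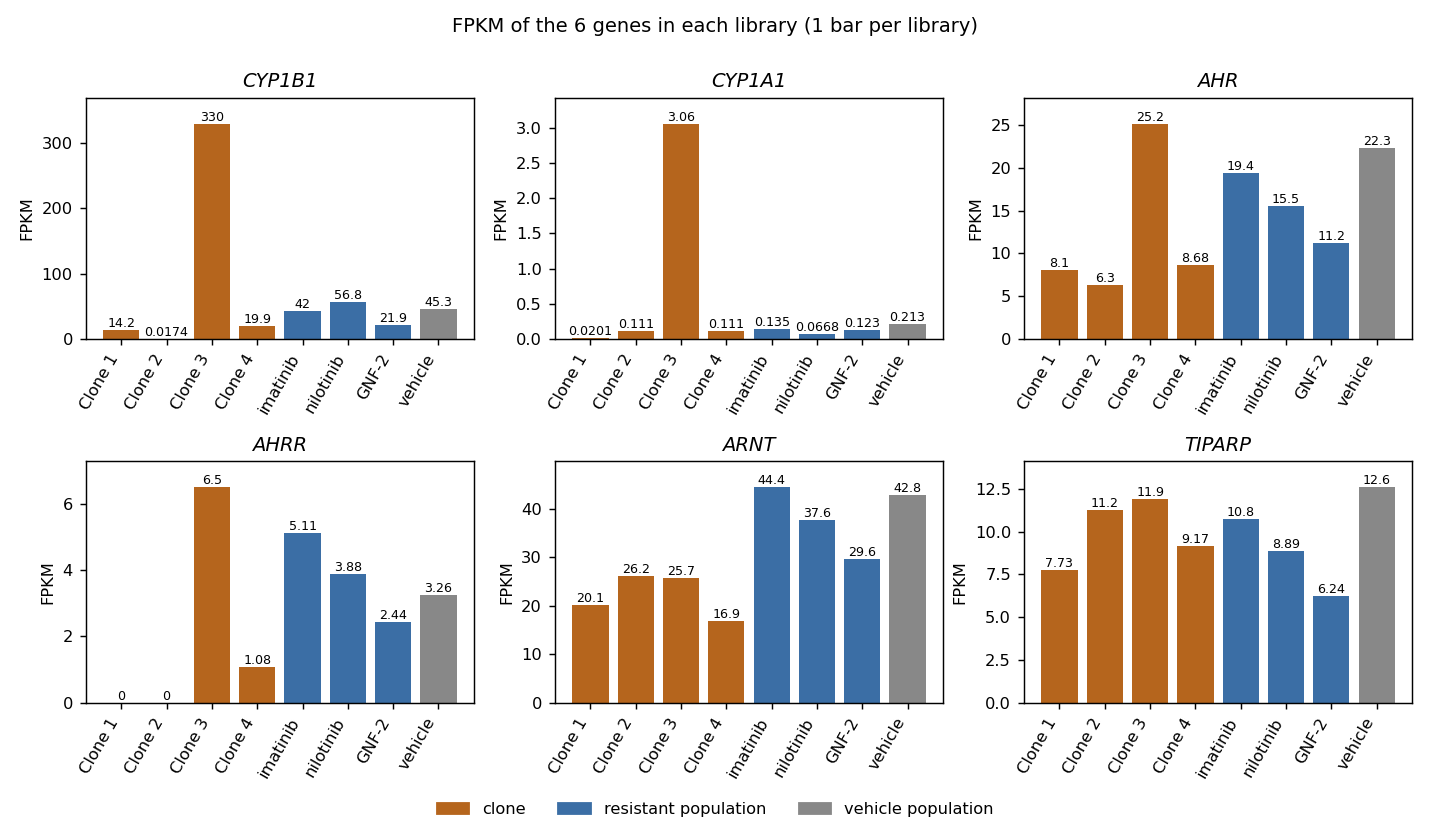
Bars give the FPKM of each of the 6 genes in each library, 1 library per bar, with a separate vertical axis per gene; colours mark clones, resistant populations and vehicle. Clone 3 has the highest bar for CYP1B1 (329.6), CYP1A1 (3.06), AHR (25.2) and AHRR (6.50), while the ARNT bars of all 4 clones are lower than those of the populations.

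Set against the imatinib population, CYP1B1 in Clone 3 was 7.85-fold higher (log2 difference 2.94), and 29 of the 11843 genes, CYP1B1 included, differed upwards by at least as much. Set against the GNF-2 population, Clone 2 had a log2 difference of -4.49, and 20 genes, CYP1B1 included, differed downwards by at least as much. The FPKM of the GNF-2 population was 1258 times that of Clone 2, but the Clone 2 value stands for roughly 2 fragments, whose 95% Poisson interval puts the ratio anywhere between 348 and 10388 for counting error only. Clones 1 and 4, sorted from GNF-2-resistant cells as well, differed from the GNF-2 population by -0.59 and -0.13. The GNF-2 population itself was 2.07-fold lower than vehicle (log2 difference -1.02). The imatinib and nilotinib populations, exposed at different doses, had CYP1B1 log2 differences of -0.11 and 0.32 from vehicle.

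Called by a difference of at least 1 on the log2(FPKM + 1) scale and at least 5 FPKM in the higher library, CYP1B1 was the only one of the 6 genes to be called in any of the 7 comparisons of single libraries, and it was called in 3. It was called higher in Clone 3 over the imatinib population, where 3.12% of all tested genes were called higher. It was called lower in Clone 2 over the GNF-2 population, where 6.48% of genes were, and lower in the GNF-2 population over vehicle, where 2.7% were. In the last of these, CYP1B1 (-1.02) was just past the limit, and AHR (-0.93) and TIPARP (-0.91) fell just short of it. Outside these 3 comparisons none of the 6 was called. There, 2.41% of genes were called in either direction for the imatinib population over vehicle, 3.68% for the nilotinib population over vehicle, 8.38% for Clone 1 and 9.44% for Clone 4 over the GNF-2 population. CYP1A1, below 5 FPKM in every library, could not have been called. AHRR could have been called only in the imatinib population over vehicle and in Clone 3 over the imatinib population. In the other comparisons both libraries were below 5 FPKM. This held for Clones 1 and 2 over the GNF-2 population, where its log2 difference was -1.78 in both and the higher library had 2.44 FPKM. These comparisons rest on 1 library a side and have no replicate check.

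The neighbours of CYP1B1 were close to silent. FAM82A1, next to it on the left, ranged from 0 to 0.262 FPKM. CYP1B1-AS1, an RNA gene named for lying antisense to the locus, sits to the right at chr2:38358246-38408993 without overlapping CYP1B1. It ranged from 0, where it was listed in Clone 2, to 0.444 in Clone 3, so its lowest and highest libraries were also those of CYP1B1, at levels near 0.

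CYP1A1 (chr15:75011882-75017877), the enzyme gene most used as a readout of receptor activity, had 0.0201 FPKM in Clone 1, 0.111 in Clone 2, 3.06 in Clone 3 and 0.111 in Clone 4, against 0.135 in the imatinib, 0.0668 in the nilotinib and 0.123 in the GNF-2 population and 0.213 in vehicle. All libraries but Clone 3 were near the bottom of the scale. Clone 3 was 14.4-fold above vehicle, the next library, and 22.7-fold above the imatinib population. With a mean of 0.481 FPKM the gene did not pass the filter and entered no fit. The values stand for roughly 224 fragments in Clone 3 and 2.1 to 15.9 in the other libraries.

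AHR (chr7:17338275-17385775), the receptor itself, had 8.10 FPKM in Clone 1, 6.30 in Clone 2, 25.2 in Clone 3 and 8.68 in Clone 4, against 19.4 in the imatinib, 15.5 in the nilotinib and 11.2 in the GNF-2 population and 22.3 in vehicle. Clone 3, vehicle and the populations under catalytic inhibitors made up the upper part of this order, and every library of GNF-2-resistant origin the lower part. The only step between neighbours larger than the within-group SD (0.35 on the log2 scale) was that between the nilotinib and GNF-2 populations (0.44). Clone 3 was 1.13-fold above vehicle, a gap of 0.17 on the log2 scale that is smaller than this SD.

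AHRR (chr5:304291-438405), the repressor of the receptor, was listed at 0 in Clones 1 and 2 and had 6.50 FPKM in Clone 3 and 1.08 in Clone 4, against 5.11 in the imatinib, 3.88 in the nilotinib and 2.44 in the GNF-2 population and 3.26 in vehicle. Clone 3 was again the highest, and the 3 clones of GNF-2-resistant origin were the lowest. An exact 0 in such a table can also be a failed estimate, so no fold is given against Clones 1 and 2. The gene overlaps PDCD6 (39.6 to 88.0 FPKM, lowest in vehicle and highest in Clone 4), and the sources used here do not say how strand was treated, so some fragments in the shared stretch may have been assigned to either gene.

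ARNT (chr1:150782180-150849244), the DNA-binding partner of AHR and also of the hypoxia-inducible factors, had 20.1 FPKM in Clone 1, 26.2 in Clone 2, 25.7 in Clone 3 and 16.9 in Clone 4, against 44.4 in the imatinib, 37.6 in the nilotinib and 29.6 in the GNF-2 population and 42.8 in vehicle. Every clone was below every population, vehicle included. ARNT was the one gene of the 6 with this order. With vehicle left aside, 18.1% of tested genes had all clones below all resistant populations. It varied 2.63-fold over all libraries, with the most in the imatinib population.

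TIPARP (chr3:156392204-156424557), the ADP-ribosyltransferase that acts on the receptor, had 7.73 FPKM in Clone 1, 11.2 in Clone 2, 11.9 in Clone 3 and 9.17 in Clone 4, against 10.8 in the imatinib, 8.89 in the nilotinib and 6.24 in the GNF-2 population and 12.6 in vehicle. The clones lay among the populations, and no step between neighbours reached the within-group SD (0.30 on the log2 scale). Its whole range was 2.02-fold. The entries that overlap ARNT and TIPARP, a short unnamed transcript and TIPARP-AS1, were listed at 0 in all libraries.

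By kind of resistance, the 3 catalytic-resistant libraries were all above the 3 GNF-2-resistant ones for CYP1B1, AHR and AHRR, an order that 4.08% of all tested genes showed. The groups overlapped for CYP1A1, ARNT and TIPARP. CYP1B1 averaged 143 ± 162 FPKM in catalytic-resistant and 12.0 ± 11.1 FPKM in GNF-2-resistant libraries (SD, n = 3 each), a log2 difference of 3.73 (SE 1.32), which was 2.33 without Clone 2 and 2.82 without Clone 3. AHR averaged 20.0 ± 4.84 FPKM in catalytic-resistant and 8.54 ± 2.48 FPKM in GNF-2-resistant libraries, a log2 difference of 1.15 (SE 0.26). For AHRR the mean of the catalytic-resistant libraries was 5.16 ± 1.31 FPKM, while 2 of the 3 GNF-2-resistant libraries were listed at 0.

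ARNT averaged 35.9 ± 9.49 FPKM in catalytic-resistant and 25.3 ± 4.80 FPKM in GNF-2-resistant libraries, a log2 difference of 0.47 (SE 0.24). TIPARP averaged 10.5 ± 1.52 FPKM in catalytic-resistant and 8.40 ± 2.57 FPKM in GNF-2-resistant libraries, a log2 difference of 0.32 (SE 0.24). The standard errors (SE) given for CYP1B1, AHR, ARNT and TIPARP describe the spread between these libraries and serve as no test. These genes were chosen with values of the libraries already known. The SEs also treat clones and resistant populations as independent libraries, which the labels do not state. By the labels, Clones 1, 2 and 4 have a GNF-2-resistant origin in common and Clone 3 has an imatinib-resistant one. The GNF-2-resistant group differed from vehicle by -1.32 for AHR (SE 0.36), -0.75 for ARNT (SE 0.35), -0.57 for TIPARP (SE 0.33) and -2.71 for CYP1B1 (SE 1.86), the last being -1.31 without Clone 2. The catalytic-resistant group differed from the same vehicle library by -0.18 for AHR (SE 0.36), -0.28 for ARNT (SE 0.35), -0.25 for TIPARP (SE 0.33) and 1.02 for CYP1B1 (SE 1.86), the last being 0.11 without Clone 3 and 1.58 without the imatinib population. Both sets share the 1 vehicle library, which is assumed to vary like the others. Clone 4 differed from the GNF-2-resistant group by 1.56 for CYP1B1 (SE 1.86), 0.05 for AHR (SE 0.36), -0.54 for ARNT (SE 0.35) and 0.15 for TIPARP (SE 0.33). The CYP1B1 difference was 0.16 without Clone 2 and 2.41 without the GNF-2 population.

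**Figure D2:**
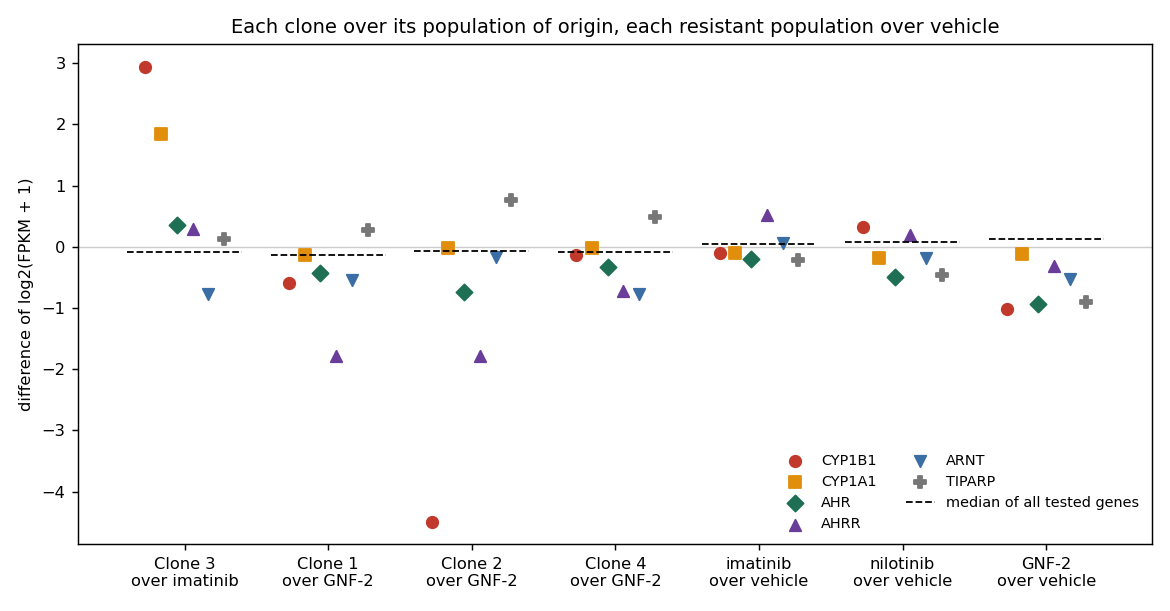
Each marker is the difference of log2(FPKM + 1) for 1 of the 6 genes between 2 single libraries: each clone over its population of origin and each resistant population over vehicle; dashed lines are the median of all 11843 tested genes. CYP1B1 stands at 2.94 in Clone 3 and at -4.49 in Clone 2, and ARNT is below 0 in all 4 clones. AHRR was listed at 0 in Clones 1 and 2, so its markers there depend on the added 1.

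By kind of library, the 4 clones averaged 22.2 ± 4.51 FPKM of ARNT (SD, n = 4) and the 3 resistant populations 37.2 ± 7.45 FPKM (SD, n = 3), a log2 difference of -0.72 (SE 0.20). ARNT was the only one of the 6 genes with all clones below all resistant populations, which 18.1% of tested genes were. TIPARP averaged 10.01 ± 1.91 FPKM in clones and 8.63 ± 2.27 FPKM in resistant populations. AHR averaged 12.1 ± 8.79 FPKM in clones and 15.4 ± 4.08 FPKM in resistant populations, and CYP1B1 90.9 ± 159 FPKM in clones and 40.2 ± 17.5 FPKM in resistant populations. For CYP1B1, whose clone mean was the larger, the difference of mean logs was negative (-1.09, SE 1.65), because the logs give the near-zero level of Clone 2 more weight. It was 0.30 without Clone 2, -2.49 without Clone 3 and 0.13 with the population of origin as a block.

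Each clone was also set against the population of its origin. CYP1B1, CYP1A1, AHR and AHRR were higher in Clone 3 than in the imatinib population and lower in Clones 1, 2 and 4 than in the GNF-2 population, an arrangement shared by 955 of the tested genes (8.06%). For AHR the log2 differences were 0.36 in Clone 3, against -0.42 in Clone 1, -0.74 in Clone 2 and -0.34 in Clone 4. Those of AHRR were 0.29 in Clone 3 and -0.73 in Clone 4. ARNT was lower in all 4 clones (-0.54 in Clone 1, -0.17 in Clone 2, -0.77 in Clone 3 and -0.77 in Clone 4). TIPARP was higher in all 4 (0.27, 0.76, 0.13 and 0.49 in the same clones). The share of all tested genes with either of these 2 arrangements was not computed. Clones 1, 2 and 4 share 1 reference, the GNF-2 population, which had the lowest TIPARP of all libraries (6.24 FPKM). The median of all tested genes was between -0.13 and -0.07 in these comparisons, so the small downward values of CYP1A1 (-0.02 in both Clone 2 and Clone 4) are no lower than those of most genes.

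Markers of other cell types were read beside the high CYP1B1 of Clone 3, since fibroblasts are known to express this gene. The 6 fibroblast markers summed to 0.0441 FPKM in Clone 3, the lowest of all libraries, against 0.322 to 7.81 in the others. Decorin was listed at 0 in all libraries and PDGFRB at 0 in Clone 3. The 5 monocyte and macrophage markers summed to 38.4 FPKM in Clone 3 and 3.31 to 15.6 in the others, with CD14 at 34.6 in Clone 3 while LYZ, CD163 and FCGR3A were listed at 0 there. Whether the higher CD14 has a part in the CYP1B1 result was not tested. SPI1, a myeloid transcription factor, was listed at 0 in Clones 3 and 4 and had 7.50 to 29.9 FPKM elsewhere. The 4 lymphocyte markers summed to 0.916 FPKM in Clone 3 and 0 to 32.3 in the others, nearly all of it CD3D.

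The genes whose levels followed CYP1B1 most closely were sought among 1284 named genes that reached 5 FPKM in some library and varied by at least 2 on the log2 scale. By Pearson r of log2(FPKM + 1) over the 8 libraries these were LRP11 (0.96), DUSP6 (0.95), TNFRSF8 (0.95), EHD2 (0.94) and CA2 (0.93). All 5 were highest in Clone 3 and lowest in Clone 2. CA2, carbonic anhydrase II, had 88.4 FPKM in Clone 1, 20.7 in Clone 2, 692 in Clone 3 and 56.0 in Clone 4, against 249 in the imatinib, 273 in the nilotinib and 155 in the GNF-2 population and 378 in vehicle. DUSP6, a phosphatase that acts on ERK kinases, had 7.58, 1.26, 44.7 and 14.9 FPKM in Clones 1 to 4, against 11.3, 18.2 and 19.7 FPKM in the imatinib, nilotinib and GNF-2 populations and 19.1 in vehicle.

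Much of this likeness comes from the 2 extreme clones. Without Clones 2 and 3, over 6 libraries, r stayed at 0.91 for EHD2, 0.86 for CA2 and 0.81 for LRP11, and was 0.53 for DUSP6 and -0.04 for TNFRSF8. Genes with the opposite course were MDFI (r of -0.96), CLIC3 (-0.95) and RASGRP2 (-0.94). MDFI, an inhibitor of myogenic transcription factors, had 11.9, 150.01, 1.28 and 15.9 FPKM in Clones 1 to 4, against 2.65, 2.86 and 10.7 FPKM in the imatinib, nilotinib and GNF-2 populations and 7.39 in vehicle.

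Among the genes of the pathway, AHR (r of 0.86, Spearman rho 0.93) and AHRR (0.84, rho 0.92) followed CYP1B1 more closely than ARNT (0.25) and TIPARP (0.14) did. Without Clones 2 and 3, r was 0.89 for AHR, 0.88 for AHRR, 0.86 for ARNT and 0.61 for TIPARP, so over the remaining 6 libraries ARNT was as close as AHR. These correlations share 8 libraries at most and the same library scaling, and are given as a description.

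**Figure D3:**
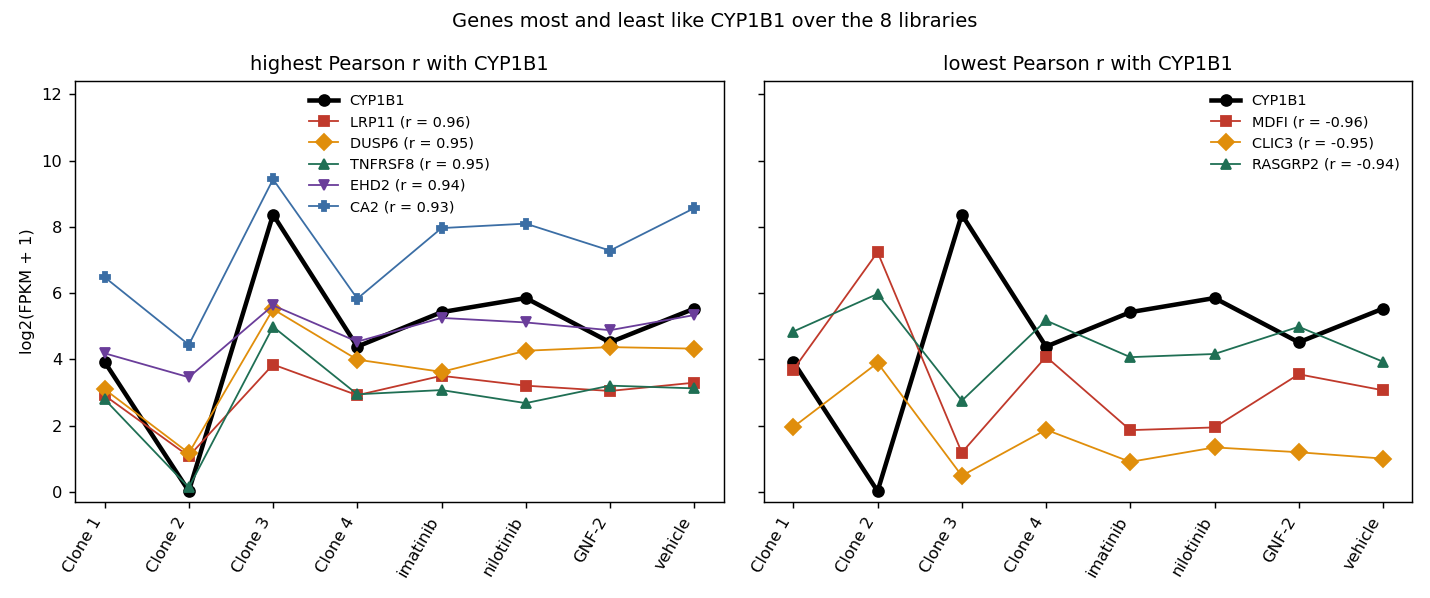
Lines join log2(FPKM + 1) across the 8 libraries, only to guide the eye, for CYP1B1 (black) with the 5 genes of highest r (left) and the 3 of lowest r (right). The genes on the left peak in Clone 3 with CYP1B1 and have their lowest point in Clone 2, and those on the right do the reverse.

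The wider pathway was covered by 8 lists with 72 other genes. Of these 40 passed the filter and were tested, 31 lay below it (12 of them listed at 0 in all libraries), and SMARCA4 lacked a value in some libraries. Between the resistance groups, limma called 0 of the 40 at a Benjamini-Hochberg adjusted p under 0.05, computed over all 11843 genes. That held for the GNF-2-resistant group against vehicle (2 genes at an unadjusted p under 0.05, all genes called 0.0929%) and the catalytic-resistant group against vehicle (1 gene, 0.0338%). It held also for the catalytic-resistant against the GNF-2-resistant group (1 gene, 0.0338%) and for Clone 4 against the GNF-2-resistant group (4 genes, 0.127%). The median log2 difference of the 40 was 0.13, -0.0042, -0.09 and 0.12 in these 4 comparisons, against 0.04, 0.02, -0.01 and -0.03 for all genes.

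Between clones and resistant populations, 3 of the 40 were called, 2 higher and 1 lower, against 7.46% of all genes (1.68% higher and 5.78% lower). HSP90AA1, the inducible HSP90 chaperone of the receptor complex, had 386, 336, 362 and 322 FPKM in Clones 1 to 4, against 213, 231 and 204 FPKM in the imatinib, nilotinib and GNF-2 populations and 248 in vehicle. The log2 difference of clones from resistant populations was 0.70 (SE 0.12, limma adjusted p = 0.0176). The call was lost when the imatinib, nilotinib or GNF-2 population was left out, when resistance group was a covariate and when the population of origin was a block over 6 libraries (limma adjusted p between 0.0173 and 0.144 over all alternatives, 0.144 with the block). The log2 difference itself stayed between 0.66 and 0.76 in these settings. The other tested members of this list did not pass. HSP90AB1, the constitutive HSP90 chaperone, ranged from 566 FPKM in the nilotinib population to 960.1 in Clone 1 (0.37, SE 0.16, limma adjusted p = 0.196). PTGES3, the p23 co-chaperone, ranged from 235 to 309 FPKM.

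HIF3A, which encodes a further partner of ARNT, had 0.0309 FPKM in Clone 1, 0.0874 in Clone 2, 0.0832 in Clone 4 and was listed at 0 in Clone 3, against 3.69, 3.13 and 2.65 FPKM in the imatinib, nilotinib and GNF-2 populations and 4.81 in vehicle. The clones were all near 0 and the populations all above 2 FPKM (log2 difference -1.98, SE 0.19, limma adjusted p = 0.00322). HIF3A, with a mean of 1.81 FPKM, passed the filter only through its levels in the populations, so filter and comparison are not independent. With no filter the limma adjusted p was 0.014. HIF3A was the 1 lower call among 8 tested genes of that list. It was called in 14 of the 15 alternatives that gave a value. The exception was the population of origin as a block (log2 difference -1.96, limma adjusted p = 0.0708). The size of the difference depended on the added constant and was -4.47 with 0.1 and -0.69 with 5. Other partners and relatives did not pass. EPAS1 ranged from 0.831 FPKM in Clone 3 to 12.5 in Clone 2, HIF1A from 33.9 to 49.4, and CLOCK from 2.28 in the imatinib population to 4.25 in Clone 4. CLOCK passed in clones against resistant populations under quantile normalization alone (limma adjusted p = 0.0378, against 0.16 as deposited).

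CYB5A, an electron donor to cytochrome P450 enzymes, had 37.1, 32.5, 36.3 and 37.2 FPKM in Clones 1 to 4, against 24.0, 25.8 and 23.3 FPKM in the imatinib, nilotinib and GNF-2 populations and 21.5 in vehicle. Its log2 difference of clones from resistant populations was 0.53 (SE 0.11, limma adjusted p = 0.0294). Leaving out any of the 7 resistant libraries other than Clone 2 ended this call, as did resistance group as a covariate and the population of origin as a block (limma adjusted p between 0.0244 and 0.175 over all alternatives, 0.175 with the block). The log2 difference stayed between 0.50 and 0.58 in these settings. In the same list of 5 genes, POR, the main electron donor of these enzymes, ranged from 14.1 FPKM in vehicle to 22.2 in Clone 2, and CYB5R3, a reductase of cytochrome b5, from 48.2 in Clone 1 to 80.3 in Clone 4. EPHX1, which hydrolyses the epoxides that P450 enzymes make, had 37.6, 111, 34.7 and 86.1 FPKM in Clones 1 to 4, against 22.4, 34.5 and 27.0 FPKM in the imatinib, nilotinib and GNF-2 populations and 13.6 in vehicle. Its difference did not pass (1.09, SE 0.42, limma adjusted p = 0.151).

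**Figure D4:**
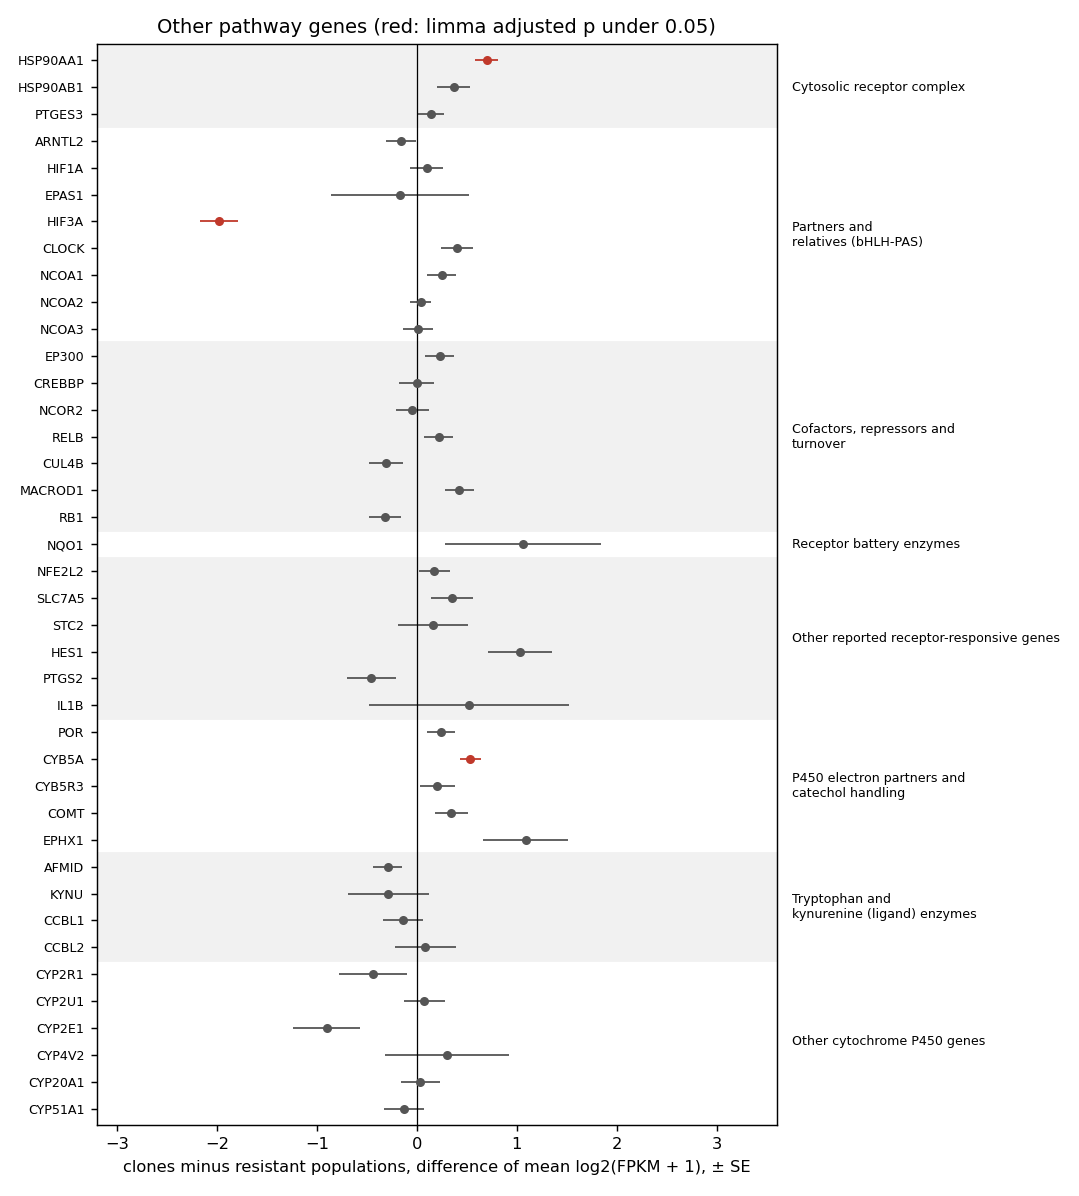
Points are the difference of mean log2(FPKM + 1) between the 4 clones and the 3 resistant populations for the 40 tested pathway genes, with bars of 1 standard error from limma, grouped by list. The 3 red points passed an adjusted p of 0.05: HIF3A at -1.98, HSP90AA1 at 0.70 and CYB5A at 0.53.

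Of the other enzyme genes that the receptor is known to induce, only NQO1 passed the filter, 1 of 8, and 5 of the 8 (CYP1A2, ALDH3A1, UGT1A1, GSTA1 and GSTA2) were listed at 0 in all libraries. NQO1, a quinone reductase, had 4.18 FPKM in Clone 1, 4.33 in Clone 2, 12.8 in Clone 3 and 54.9 in Clone 4, against 4.80 in the imatinib, 4.18 in the nilotinib and 5.41 in the GNF-2 population and 6.0 in vehicle. Its highest level was thus in Clone 4, where CYP1B1 was below vehicle, and Clone 3 came second. The difference of Clone 4 from the GNF-2-resistant group did not pass (log2 difference 3.32, SE 0.54, limma adjusted p = 0.227) except when Clone 3 was left out (limma adjusted p = 0.0249, with 0.517 the highest over all alternatives).

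Other genes reported to respond to the receptor gave 0 calls of 6 tested in every comparison by limma, with 1 gene at an unadjusted p under 0.05 in each of the 5 comparisons. IL1B, a cytokine, had 7.50, 17.97, 0.221 and 0.0667 FPKM in Clones 1 to 4, against 1.40, 1.80 and 1.77 FPKM in the imatinib, nilotinib and GNF-2 populations and 2.16 in vehicle, so it was lowest in Clones 3 and 4. PTGS2, cyclooxygenase 2, ranged from 1.00 FPKM in Clone 3 to 7.71 in vehicle. HES1, a transcriptional repressor, ranged from 2.07 in the imatinib population to 13.3 in Clone 4, and STC2 from 10.1 in Clone 2 to 26.6 in Clone 3.

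Enzymes that make or remove tryptophan-derived ligands of the receptor were mostly off. IDO1, KMO and IL4I1 were listed at 0 in all libraries, and TDO2 reached at most 0.676 FPKM. Of the 4 that were tested (AFMID, KYNU, CCBL1 and CCBL2) limma called 0 in any comparison (CCBL2 alone had an unadjusted p under 0.05, in Clone 4 against the GNF-2-resistant group), and KYNU, kynureninase, ranged from 3.97 FPKM in Clone 1 to 15.1 in Clone 2. Among 16 other cytochrome P450 genes, 6 were tested and limma called 0 (CYP2E1 alone had an unadjusted p under 0.05, in clones against resistant populations). CYP4V2, a fatty acid hydroxylase, had the widest range of the 6, with 3.52 FPKM in Clone 3 and 20.4 in Clone 1. CYP2E1 ranged from 2.02 FPKM in Clone 3 to 10.7 in the GNF-2 population. CYP51A1, an enzyme of sterol synthesis, had 50.3 to 91.2 FPKM, and CYP2R1 3.65 FPKM in Clone 2 to 14.5 in the GNF-2 population. CYP1B1, at 329.6 FPKM in Clone 3, was there the most abundant of the P450 genes on these lists, and in Clone 2, at 0.0174, it was below all 6 of those tested.

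Cofactors and regulators of the receptor complex gave 0 calls of 7 tested by limma, and MACROD1 alone had an unadjusted p under 0.05, in clones against resistant populations. RELB, an NF-kappa-B subunit that can pair with AHR, ranged from 20.3 FPKM in vehicle to 34.6 in Clone 4. CUL4B, a scaffold of the ubiquitin ligase that acts with AHR, ranged from 20.9 in Clone 3 to 37.0 in the imatinib population. RB1 ranged from 31.1 in Clone 1 to 52.9 in the imatinib population, and MACROD1 from 26.7 in vehicle to 52.4 in Clone 1. MACROD1, an ADP-ribosyl hydrolase, passed in clones against resistant populations only when Clone 2 was left out (limma adjusted p = 0.0485, against 0.115 with all libraries).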

How the data were processed

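Total RNA of the 8 libraries was extracted with RNeasy Plus Mini columns and prepared by a standard Illumina procedure, per the labels' protocols. The table deposited by the authors gives FPKM for each gene in each library. Per the submitters' processing notes, TopHat 1.3 and Cufflinks 1.3 were used with build GRCh37. The unit was read from these tools and from values that are not whole numbers. The table does not name it.

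Of 31402 entries, 70 lacked a value in at least 1 library and were left out, and 11843 had a mean of at least 1 FPKM. On log2(FPKM + 1), which understates changes of low genes, limma 3.58.1 in R 4.3.3 (lmFit, eBayes with trend) fitted 1 mean per resistance group, or 1 per kind of library, over all 8 libraries. Differences were called at a two-sided Benjamini-Hochberg adjusted p of 0.05 over all tested genes. A group of 1 library is taken to vary as the replicated groups do. The procedure was tested on simulated data with independent libraries and the same SD for every gene. Such data do not represent libraries of shared origin or genes as variable as CYP1B1. Single libraries were compared by a fold of 2 on the same scale with at least 5 FPKM in the higher one, without a test. Depth was estimated from the smallest FPKM steps of intronless genes and fragments per gene from GENCODE transcript lengths; both are rough and cover counting error only.

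The 6 genes, the pathway lists and the marker lists were chosen with earlier results of these data known. From the lists the text names every gene past the threshold, then up to 4 per list by range over the libraries; genes like CYP1B1 are the 5 highest and 3 lowest by r. Alternatives were other pseudocounts (0.1 and 5), filters (none, or a mean of 5) and scalings, variance without trend, and kind or group as covariate. Each library but vehicle was also left out in turn, Clone 4 only for clones against resistant populations. Chosen after seeing the data, a further alternative set clones against populations with the population of origin as a block. The blocks were Clone 3 with imatinib and Clones 1, 2 and 4 with GNF-2, as the labels give the origin. Genes below the filter are named to describe their lists, of which 1 gene is not reported here. Promoters came from RefSeq (GRCh38.p14), and figures were drawn with matplotlib 3.10.9 in Python 3.11.15 (numpy 2.4.6, pandas 2.3.3).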

Additional observations from a re-analysis of the deposited data

Results flagged for a closer look

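Among the 4 clones, 5 of the 34 genes screened had 1 clone whose gap to the nearest other clone, as a share of the whole range, was above Dixon's 95% critical value, a limit that chance passes in about 1 of 20 groups and 8.34% of all 11843 tested genes passed in FPKM. The 6 genes and the lists were chosen with these levels known, so the number of such genes is no test. The genes screened from the lists were those with the widest range over the libraries, up to 4 per list. Because of that choice, the share of all tested genes is not a like comparison. On log2(FPKM + 1) the shares were 0.48 for CYP1B1, 0.94 for CYP1A1, 0.78 for AHR, 0.64 for AHRR and 0.59 for NQO1. Of these 5 genes CYP1A1 alone passed the limit there, where 6.58% of all tested genes did. CYP1A1, with a mean of 0.481 FPKM, is not among the tested genes. CYP1B1 stood at 329.6 FPKM in Clone 3 (share 0.940) with 19.9 FPKM in the next clone, and CYP1A1 at 3.06 FPKM (share 0.970) with 0.111 in the next. AHR stood at 25.2 FPKM in Clone 3 (share 0.874) and AHRR at 6.50 FPKM (share 0.834). NQO1 stood at 54.9 FPKM in Clone 4, with a share only just above the limit.

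The move of a clone from its population of origin went opposite ways for 4 genes, an arrangement that 8.06% of all tested genes shared. For CYP1A1 the moves of Clones 2 and 4 were only -0.02 each. In Clone 3 the log2 difference from the imatinib population was 2.94 for CYP1B1, 1.84 for CYP1A1, 0.36 for AHR and 0.29 for AHRR, while Clones 1, 2 and 4 were all below the GNF-2 population. This difference was not tested, since there is 1 clone on one side and the 3 on the other share their population.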

How the results depend on the processing

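The log2 differences of the fitted genes depended on single libraries. Leaving out 1 library moved 8 of 31 values by over 1.5 times for CYP1B1, 7 for AHR, 4 for AHRR, 3 for ARNT and 9 for TIPARP. AHRR, listed at 0 in Clones 1 and 2, also moved with the pseudocount (for catalytic-resistant minus GNF-2-resistant, 4.13 with 0.1 and 0.82 with 5, against 2.01). Signs changed in 5 values. CYP1B1 in clones minus resistant populations was 0.09 with resistance group as covariate, 0.13 with the origin block and 0.30 without Clone 2. In Clone 4 minus GNF-2-resistant, TIPARP was -0.02 without the GNF-2 population and AHR was -0.12 without Clone 2.

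The number of genes called over the whole table was unstable. It was 11 for GNF-2-resistant minus vehicle (253 with no filter, 7 at a mean of at least 5 FPKM, 1 to 13 leaving out 1 library) and 4 for catalytic-resistant minus vehicle (243 with no filter, 2 at a mean of at least 5, 1 with median ratios and with quantile normalization, 0 to 1 leaving out 1 library). It was 4 for catalytic-resistant minus GNF-2-resistant (1 with no filter, 2 at a mean of at least 5, 1 to 10 leaving out 1 library) and 15 for Clone 4 minus GNF-2-resistant (192 with no filter, 5 to 14 leaving out 1 library). For clones minus resistant populations it was 883 (320 with no filter, 238 with the covariate, 128 to 1086 leaving out 1 library, lowest without the nilotinib population). The cause was not tested.

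Pathway genes called went to 1 with no filter in both comparisons against vehicle (SERPINB2) and in Clone 4 minus GNF-2-resistant (UGT1A6), and to 0 to 1 leaving out 1 library in Clone 4 minus GNF-2-resistant. In clones minus resistant populations they were 1 with the covariate (HIF3A) and 1 to 5 leaving out 1 library, lowest without the imatinib, nilotinib or GNF-2 population and highest without Clone 2. Of the 5 genes most like CYP1B1, 1 was shared by rank correlation, 1 without Clone 3 and 0 without Clone 2. The labels give no replicate numbers shared between groups, but they give each clone's origin. With origin as a replicate block (6 libraries, 3 residual degrees of freedom, chosen after seeing the data), 11 genes of the table were called in clones minus resistant populations and 0 of the pathway genes (1919 of all genes had an unadjusted p under 0.05). Low levels (CYP1A1 outside Clone 3, CYP1B1 in Clone 2) rest on few fragments.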
